A study of Homo sapiens with 4 samples.

Results

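The 8 genes described here encode the initiator caspases CASP8 and CASP9, the apoptosome scaffold APAF1, the mitochondrial protein DIABLO (SMAC) and 4 inhibitors of apoptosis, namely XIAP, BIRC2 (cIAP1), BIRC3 (cIAP2) and BIRC5 (survivin). They were chosen by name, with earlier results of these data known. Each was matched to its row of the count table by its position on GRCh38 (hg38). All 8 were found among 60554 genes, and all 8 were among the 12662 whose normalised count averaged 50 or more over the 4 libraries, called measured genes here. RNA came from IGROV1-R10, an established line of human ovarian carcinoma cells. These received, at 60 nM, biotinylated miR-491-5p or a biotinylated worm miRNA as the control (a cel-miR, cel-miR-65 in the design text). Nuclei and debris were spun out, 10% of each lysate was kept as input, and the rest was incubated with streptavidin beads for 4 h and washed 5 times to give the pull-down. Each of the 4 groups, input and pull-down for either miRNA, was 1 library made from the pooled RNA of 3 experiments.

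Apoptosis is carried out by caspases, proteases that are activated in a cascade. CASP8 is activated at death receptors of the cell surface, while CASP9 is activated on APAF1 once cytochrome c has left the mitochondria. XIAP binds and blocks caspases directly, BIRC2 and BIRC3 act mainly as ubiquitin ligases in TNF receptor and NF-kB signalling, BIRC5 works mostly in cell division, and DIABLO released from mitochondria displaces IAPs from caspases. miR-491-5p is known for lowering the anti-apoptotic BCL-xL, product of BCL2L1, in this cell line.

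The transfected miRNA is printed here because the pull-down rests on its base pairing, with the seed, bases 2 to 8 from the 5′ end, in capitals.
hsa-miR-491-5p: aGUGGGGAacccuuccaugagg
The sequence and its locus (GRCh38.p14, chromosome 9, 20716120 to 20716141, plus strand) are from RefSeq. Among 2370 mature human miRNA names in the same RefSeq table, it was the only one with this seed, whose perfect complement in a transcript reads TCCCCAC in DNA letters. Transcript sequences were not used here, so sites in the 8 genes were not looked for.

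The gene counts summed to between 47679684 and 62582646 per library. All 10 markers fixed for ovarian carcinoma and epithelium were detected in every library, with a summed level of 1744 to 2516 CPM (the usual scaling of counts to library size). All 10 hepatocyte markers were detected in the control input, with a sum of 59.0 CPM, against 0.201 to 0.551 in the other libraries. The 6 fibroblast markers summed to 12.7 CPM in the control input and 1.09 to 4.92 elsewhere. The 5 immune markers summed to 1.15 CPM in the control input and to 0.288 to 0.421 elsewhere, and the 2 erythroid markers to 0.461 and to at most 0.0336. Counts are given below after division by DESeq2 size factors (normalised counts). Ratios are log2 values of normalised counts plus 1, with 95% intervals that cover counting error only, as the reads carry no molecular identifiers and are not independent molecules. As every group is a single library, differences between the miRNAs come without replicate check or p-value. A gene is called higher or lower here where its ratio passed 2-fold and the interval left out 0. Where 4 normalised counts stand in a row, input and pull-down with miR-491-5p come first, then input and pull-down with the control.

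In the inputs the 8 genes covered a wide range of abundance. Per kilobase of exon, BIRC3 was highest, at 4181 (miR-491-5p) and 4417 (control) normalised counts per kb, and 95.2% of measured genes lay below its mean. BIRC2 followed at 3154 and 3105, BIRC5 at 2230 and 2037, and XIAP at 1128 and 997. These 4 inhibitors of apoptosis stood above the rest. Of the other 4, APAF1 had 618 and 516 per kb, CASP8 469 and 432, CASP9 154 and 133, and DIABLO 62.3 and 66.1. The order of the 8 genes was the same in both inputs. Fewer cells with an RNA and less of it per cell cannot be told apart in such bulk libraries.

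The low level of DIABLO has a limit from the counting. Reads that overlapped more than 1 gene were left out, and 1311 of the 5967 exon bases of DIABLO (22.0%) are shared with other genes of the annotation. Of these bases, 1139 are shared with an unnamed gene of the same strand, ENSG00000256861, which was listed at 0 counts in every library, and 971 with B3GNT4, on the other strand, which had 57, 87, 41 and 74 reads; some bases are shared with both. The shared part was 9.48% for APAF1, with ANKS1B (3 to 11 reads per library), 2.01% for CASP9, with CELA2B (at most 1 read), and 0% for CASP8, XIAP, BIRC2, BIRC3 and BIRC5.

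**Figure D1:**
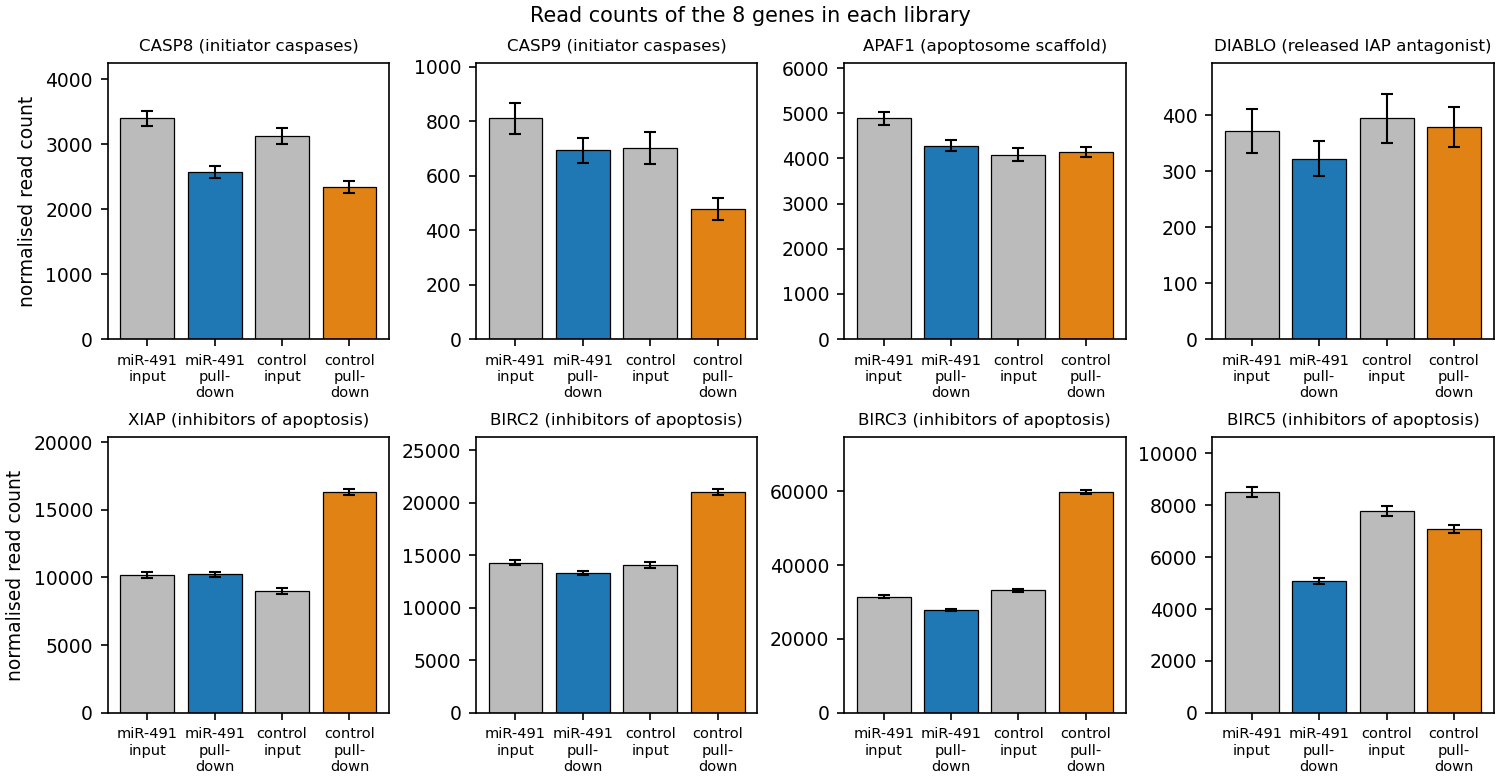
Normalised read count (y axis, starting at 0, with its own scale in each panel) of the 8 genes in each of the 4 libraries; grey bars are inputs, the blue bar the miR-491-5p pull-down, the orange bar the control pull-down, and error bars are 95% counting intervals with no replicate spread. XIAP, BIRC2 and BIRC3 are highest in the control pull-down, while CASP8 and CASP9 are lowest there.

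The first comparison follows the design text: enrichment with miR-491-5p is the quotient of the 2 pull-downs over the quotient of the 2 inputs, each with miR-491-5p on top. The 4 inhibitors of apoptosis all had an enrichment below 0, from -1.02 to -0.61, with a median of -0.77 where all measured genes had 0.00. CASP8 and CASP9 lay at 0.02 and 0.32, and APAF1 and DIABLO at -0.21 and -0.15. Of the 8 genes only BIRC3 passed 2-fold, in the lower direction, against 5.32% of all measured genes called lower and 4.46% called higher. No one of the 8 was called enriched. Over the 8 the median was -0.41, with 6 below 0, where 49.9% of all measured genes were below 0. The 8 were chosen with earlier results of these data known, and this difference was not tested. Under scaling by total counts the median of all genes moved to 0.18, the enrichment of BIRC3 became -0.84 and was not called, and the 4 inhibitors of apoptosis remained below 0, from -0.84 to -0.43.

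BIRC3 (ENSG00000023445, chromosome 11, 102317450 to 102339403, plus strand) is a ubiquitin ligase induced by NF-kB. It had 31436, 27917, 33208 and 59780 normalised counts. The control pull-down thus stood above the other 3 libraries, which lay close together. The enrichment was -1.02 (-1.05 to -0.99), a 2.03-fold lower value, with a pull-down ratio of -1.10 (-1.12 to -1.08) and an input ratio of -0.08 (-0.10 to -0.06). The interval of the enrichment spans the 2-fold limit, so counting error alone could place it on either side. Of all measured genes 5.12% had a lower enrichment and 2.40% a lower pull-down ratio.

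XIAP (ENSG00000101966, chromosome X, 123859724 to 123913979, plus strand), the direct caspase inhibitor, had 10183, 10235, 8994 and 16308 normalised counts. The control pull-down was again the highest of the 4. The enrichment was -0.85 (-0.91 to -0.80), with a pull-down ratio of -0.67 and an input ratio of 0.18 (0.13 to 0.22), so both parts of the ratio lowered it. XIAP has pseudogene copies, and reads that fit several places were not counted, so its level is uncertain to that extent.

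BIRC2 (ENSG00000110330, chromosome 11, 102347211 to 102378670, plus strand), the paralogue of BIRC3, starts 7807 bases after the end of BIRC3. It had 14295, 13303, 14073 and 21027 normalised counts, the last again the highest. The inputs differed by 0.02 (-0.01 to 0.06), the input ratio nearest 0 of the 8. The pull-down ratio was -0.66 and the enrichment -0.68 (-0.73 to -0.64). The exons of these neighbours do not overlap each other or another gene of the annotation.

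BIRC5 (ENSG00000089685, chromosome 17, 78214186 to 78225636, plus strand), a subunit of the chromosomal passenger complex, had another order of libraries. It had 8508, 5090, 7770 and 7086 normalised counts, so the miR-491-5p pull-down was lowest and no pull-down exceeded its input. The enrichment was -0.61 (-0.68 to -0.54), with a pull-down ratio of -0.48 and an input ratio of 0.13.

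The initiator caspases lay at or above 0 in enrichment. CASP8 (ENSG00000064012, chromosome 2, 201233443 to 201287711, plus strand) had 3396, 2572, 3127 and 2337 normalised counts. Both pull-downs were below both inputs, and the enrichment of 0.02 (-0.09 to 0.13) was within counting error of 0. Under total counts the enrichment of CASP8 became 0.20, with an interval that left out 0. CASP9 (ENSG00000132906, chromosome 1, 15490832 to 15526534, minus strand) had 811, 693, 700 and 480, with the control pull-down lowest. Its enrichment of 0.32 (0.10 to 0.54), the highest of the 8, combines a pull-down ratio of 0.53 (0.37 to 0.69) and an input ratio of 0.21 (0.05 to 0.37), and 72.3% of measured genes lay below it.

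APAF1 (ENSG00000120868, chromosome 12, 98645141 to 98735433, plus strand), on which CASP9 is activated, had 4887, 4285, 4081 and 4145 normalised counts. Its pull-downs differed by 0.05 (-0.01 to 0.10), and its enrichment of -0.21 (-0.30 to -0.13) rested on an input ratio of 0.26 (0.19 to 0.32), the largest of the 8. Under total counts the pull-down ratio of APAF1 became 0.20 and its enrichment -0.03, the latter within counting error of 0. DIABLO (ENSG00000184047, chromosome 12, 122207662 to 122227534, minus strand) had 356, 399, 307 and 427 reads, or 372, 323, 394 and 379 normalised counts, in the same order. At this depth its enrichment of -0.15 (-0.44 to 0.15) could not be told from 0, and total counts moved it above 0.

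By counting error alone, the order of enrichment put BIRC3 below XIAP and XIAP below BIRC2 with intervals that did not overlap. The intervals of BIRC2 and BIRC5 overlapped, as did those of APAF1 and DIABLO, of DIABLO and CASP8, and of CASP8 and CASP9. In the pull-downs alone the order was similar, with BIRC3 lowest, XIAP and BIRC2 next, then BIRC5 and DIABLO, then APAF1, CASP8 and CASP9. BIRC3 was again the 1 of 8 genes past 2-fold, where 3.17% of measured genes were lower and 2.5% higher. Under total counts its pull-down ratio became -0.94 and was not called.

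**Figure D2:**
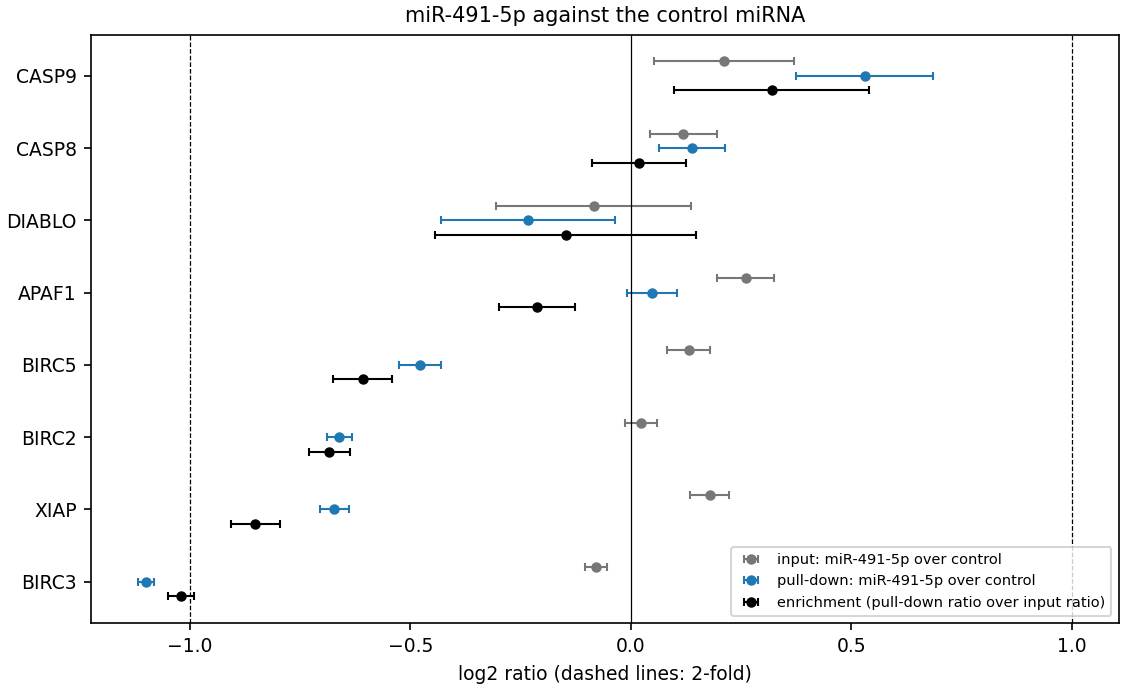
Log2 ratios (x axis) of the 8 genes (y axis, ordered by enrichment): grey points are the input ratio, blue points the pull-down ratio and black points the enrichment, with 95% counting intervals; dashed lines mark 2-fold. BIRC3, XIAP, BIRC2 and BIRC5 lie below 0 in the pull-down ratio and the enrichment, and the input ratios of all 8 genes lie between -0.08 and 0.26.

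The input ratio compares the RNA level in the miR-491-5p input with that in the control input, each a single library. It was above 0 for 6 of the 8 genes and below 0 for BIRC3 and DIABLO (-0.08 for both), with a median of 0.12 where all genes had -0.01 (under total counts BIRC2 moved below 0, leaving 5 above). None of the 8 passed 2-fold, against 0.727% of measured genes higher and 0.513% lower. APAF1 at 0.26, CASP9 at 0.21, XIAP at 0.18, BIRC5 at 0.13 and CASP8 at 0.12 had intervals above 0, each a difference of less than 1.2-fold. Hepatocyte and fibroblast markers were high in the control input, which enters this ratio, and their part in it was not tested. BCL2L1, the known target, had an input ratio of -0.53, a pull-down ratio of 0.74 and an enrichment of 1.27 (1.20 to 1.35) in the same libraries.

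Pull-down over input within each transfection shows where the low enrichment of the inhibitors of apoptosis lay. With the control miRNA, XIAP stood at 0.86 (0.82 to 0.90), BIRC3 at 0.85 (0.83 to 0.87) and BIRC2 at 0.58 (0.55 to 0.61) above input, while BIRC5 was at -0.13. With miR-491-5p the same 4 genes had 0.01 (-0.03 to 0.05), -0.17 (-0.19 to -0.15), -0.10 (-0.14 to -0.07) and -0.74 (-0.79 to -0.69). All measured genes had a median of -0.15 in both transfections. XIAP, BIRC2 and BIRC3 were thus above the median of all genes on the control beads, by 1.01, 0.73 and 1.00, and near it on the miR-491-5p beads. BIRC5 was near it on the control beads and 0.59 below it on the miR-491-5p beads. The enrichment is the difference of these 2 values, so they share all their libraries with it and are no separate support.

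None of the 8 passed 2-fold on either kind of bead. On the miR-491-5p beads 5.34% of measured genes were higher and 4.96% lower, and on the control beads 8.61% and 10.0%. Scaling by total counts raised the median of all genes to 0.17 on the miR-491-5p beads and to -0.01 on the control beads. Under that scaling 6 of the 8 genes, in place of 1, lay above 0 on the miR-491-5p beads, and XIAP and BIRC3 reached 1.00 and 0.99 on the control beads. Signs against 0 on the beads therefore depend on the scaling, while distances from the median of all genes do not. With the miR-491-5p input in place of the control input, an alternative chosen after the hepatocyte markers were seen, the control beads gave 0.93 for BIRC3, 0.68 for XIAP and 0.56 for BIRC2, still above 0, while APAF1 turned from 0.02 (-0.04 to 0.09) to -0.24.

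CASP8 was below its input on both kinds of bead, at -0.40 and -0.42 with miR-491-5p and the control. CASP9 had -0.23 and -0.55, the first of which moved to 0.09 under total counts. APAF1 had -0.19 and 0.02. DIABLO had -0.20 (-0.41 to 0.00) and -0.06 (-0.27 to 0.15), both within counting error of 0. Total counts moved the values of DIABLO to 0.11 and 0.08. Across the 12662 measured genes, which are not independent, exon length correlated with pull-down over input at Spearman's rho of 0.25 (miR-491-5p) and 0.29 (control), and with enrichment at -0.12. XIAP, APAF1 and BIRC3 have 9025, 7908 and 7518 exon bases, above the third quartile of 7257, and BIRC2 and BIRC5 have 4532 and 3815, below the median of 4865. CASP8, DIABLO and CASP9 lie in between, at 7243, 5967 and 5269. The part of length in the values of the 8 genes was not tested.

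**Figure D3:**
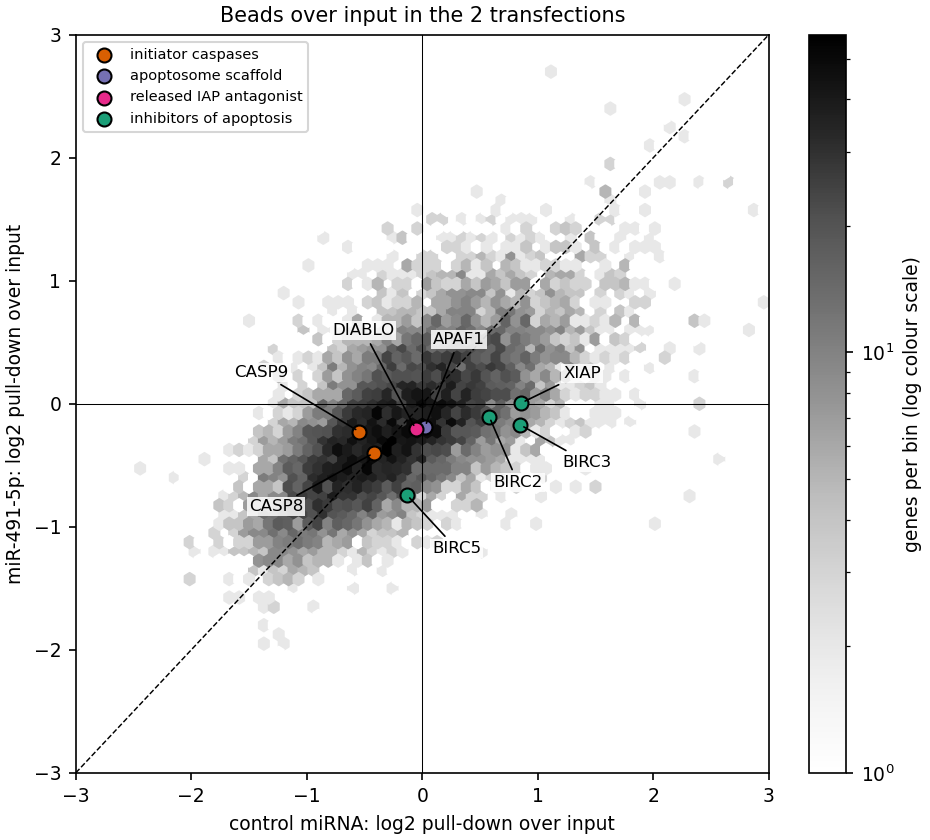
Log2 pull-down over input with the control miRNA (x axis) and with miR-491-5p (y axis): grey hexagons count measured genes within 3 of 0 on both axes (log colour scale), coloured points are the 8 genes by role, and the dashed line marks equal values. XIAP, BIRC3 and BIRC2 lie to the right of 0 and below the line, BIRC5 lies at -0.13 and -0.74, and CASP8 and CASP9 lie at or above the line.

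Input and pull-down of a transfection are parts of the same lysates, so what the beads held with either miRNA was tested with edgeR's quasi-likelihood test, with the transfection as a block. It called 0 of the 8 genes (at least 2-fold and a Benjamini-Hochberg adjusted p under 0.05), and 4.92% of measured genes in each direction. At an unadjusted p under 0.05 it also gave 0 of the 8, against 4360 of 12662 genes, and DESeq2 called 0 of the 8. XIAP had the largest value, 0.46, with an adjusted p of 0.26 in edgeR. Only 1 degree of freedom was left for the spread in that fit, and each of its 2 pairs carried another miRNA.

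Genes of the surrounding pathway were taken from lists of 60 genes, of which 48 were measured. For enrichment 0 were called higher and 2 lower, against 4.46% and 5.32% of all measured genes, so the count of lower genes is near that of the background. Their median was -0.08. Of the other caspases 4 of 9 were measured and none was called. The inflammatory caspase CASP4 had 0.31 (0.14 to 0.49), but 3 of the 4 were below 0, with a median of -0.16. Under total counts 2 of the 4 were below 0. Among the factors released from mitochondria, AIFM1, the apoptosis-inducing factor, had 0.39 and HTRA2, a protease that also binds IAPs, 0.24 (-0.04 to 0.52). Cytochrome c, CYCS, was the 1 of these 3 measured genes past 2-fold on the beads, at -1.22 (miR-491-5p) and -1.17 (control), and its enrichment was -0.05. Under total counts it did not pass 2-fold on the miR-491-5p beads, at -0.90. Of the 48 measured pathway genes 1 was higher and 1 lower on the miR-491-5p beads, against 5.34% and 4.96% of all measured genes. On the control beads 4 were higher and 2 lower, against 8.61% and 10.0%. HTRA2 shares exon bases with AUP1 and LOXL3, so its count may be incomplete.

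Both genes called lower for enrichment came from the lists of death receptors and adaptors and of NF-kB and TAK1 partners. TNFRSF21, the death receptor DR6, had 5275, 7968, 6414 and 23777 normalised counts and an enrichment of -1.30 (-1.36 to -1.23). It was the 1 of 14 measured death receptors and adaptors that was called for enrichment, and 5 of the 14 were above 0. RELA, the p65 subunit of NF-kB, had 1439, 1552, 1837 and 6602, and an enrichment of -1.74 (-1.86 to -1.61). Of 11 measured NF-kB and TAK1 partners it was the only one called, and 8 were below 0, with a median of -0.28, against 49.9% of all measured genes below 0. Under total counts 6 of the 11 were below 0, with a median of -0.11. Both genes were highest in the control pull-down, as XIAP, BIRC2 and BIRC3 were. This was not particular to the called genes. TRAF3 and TAB2 of the same lists, which were not called, were also highest there, while FAS and NFKB2 were not. The share among all measured genes was not counted.

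The 5 measured genes of the list of further IAPs and their regulators had a median enrichment of 0.04, with UBE2D2, a ubiquitin-conjugating enzyme, at -0.46 and HAX1, a mitochondrial anti-apoptotic protein, at 0.35. BIRC6, the giant IAP, had -0.08 (-0.12 to -0.04). Of the partners of BIRC5 in the chromosomal passenger complex, AURKB had 0.47 (0.34 to 0.60) and INCENP 0.36 (0.24 to 0.47), whereas BIRC5 was at -0.61. CDCA8 was within counting error of 0 at 0.01 (-0.07 to 0.10) and turned below 0 under TMM. Among 8 measured caspase substrates and executors none was called for enrichment. The kinase PAK2 had -0.60 (-0.65 to -0.54) and the pore-forming GSDME 0.57 (-0.38 to 1.51). The value of GSDME is limited by 21 and 22 reads in the inputs. GSDME was called higher on both kinds of bead, at 1.97 (miR-491-5p) and 1.40 (control), with the same few input reads. Total counts moved BIRC6 and CYCS above 0 and turned the medians of the other caspases, the death receptors and the substrates to 0.02, 0.07 and 0.07, from -0.16, -0.11 and -0.10. Differences between these lists were not tested.

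**Figure D4:**
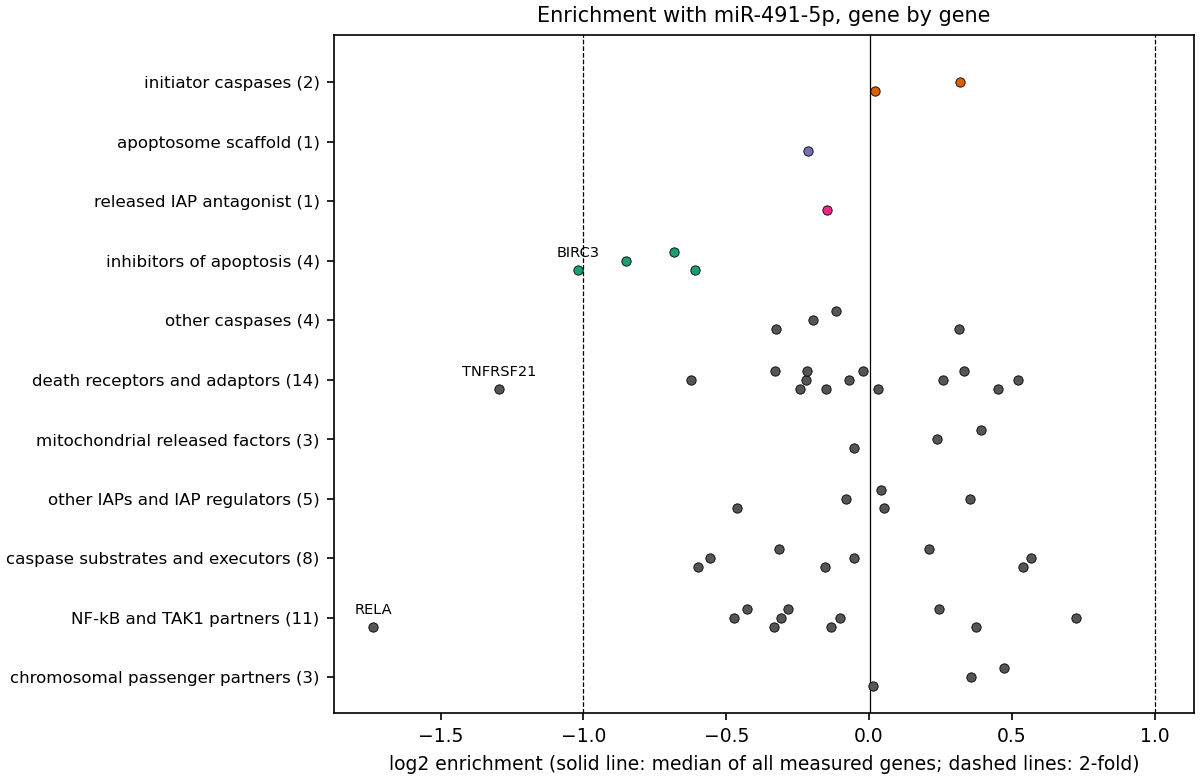
Log2 enrichment with miR-491-5p (x axis) of each measured gene, by list (y axis, number of measured genes in parentheses); points are genes, spread vertically for sight only, the solid line is the median of all measured genes and dashed lines mark 2-fold. The 4 inhibitors of apoptosis lie between -1.02 and -0.61, and BIRC3, TNFRSF21 and RELA are the labelled genes past 2-fold.

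Finally, genes with the most similar pattern were sought for the 3 genes with the largest absolute enrichment, by the root mean square difference of log2 normalised counts, centred per gene, over the 4 libraries. Nearest to BIRC3 were TES (0.02) and SNX16 (0.04), to XIAP MINPP1 (0.02) and STK38 (0.03), and to BIRC2 FBXW11 and VEZT (0.02 each). TES, an adhesion protein, had 20378, 17875, 21420 and 37285 normalised counts. STK38, a kinase, had 7731, 7691, 6618 and 12755. The 6 genes were picked for their likeness over these libraries, so their enrichment values, between -0.99 and -0.61, follow from the choice.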

How the data were processed

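RNA of 4 libraries of IGROV1-R10 cells was measured as whole-number read counts per gene, deposited without normalization. Per the file headers, the authors used featureCounts 1.5.0-p1 to assign reads to genes of GENCODE release 24 (hg38), without regard to strand although the kit was stranded per the labels' protocols, singly, and leaving out marked duplicates, reads that fit several places and reads that overlap several genes. The submitters' processing notes also name STAR and DESeq2 1.10.1. The exon length per gene is the deposited column of the same table. Genes were named from RefSeq positions on GRCh38.p14, with 11713 of 12662 measured genes named; CASP6 was not matched and is not analysed here. Counts were divided by DESeq2 1.42.0 size factors (0.957 and 1.24 for input and pull-down with miR-491-5p, 0.778 and 1.13 for the control). Ratios used a pseudocount of 1, and errors a Poisson model with 0.5 added to each count and 1.96 standard errors each side. Pull-down against input over both transfections was tested with edgeR 4.0.16 (TMM over the whole table). Both steps were tested on simulated data, with Poisson counts for the ratios and the same change in both pairs for edgeR. Such data check the computation only, as they hold no replicate spread for the ratios and no difference between the miRNAs for edgeR. Named were the 8 genes, the listed pathway genes past 2-fold for the miRNAs or else the 2 of each list with the largest absolute enrichment, and the nearest genes; CYCS, BIRC6 and CDCA8 were added after their values were seen, and 1 gene the rule names is not reported here. The members and lists were chosen with earlier results of these data known. Alternatives were total counts, TMM, a pseudocount of 5, no count minimum, a minimum of 200, DESeq2 and a fit without the block.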

Additional observations from a re-analysis of the deposited data

Results flagged for a closer look

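For 3 of the 8 genes pull-down over input lay below 0 with miR-491-5p and above 0 with the control miRNA. The difference, miR-491-5p minus control, was -1.02 for BIRC3, -0.68 for BIRC2 and -0.21 for APAF1. It was not tested, since each group has 1 library. For APAF1 the value on the control beads, 0.02 (-0.04 to 0.09), was within counting error of 0, and with the miR-491-5p input in place of the control input it was -0.24. Under total counts all 3 genes lay above 0 with miR-491-5p as well (0.15 for BIRC3, 0.22 for BIRC2 and 0.13 for APAF1), so the opposite signs depend on the scaling.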

How the results depend on the processing

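With total counts as the scaling, 0 of the 8 genes passed 2-fold in enrichment and 0 in the pull-down ratio. The median of the 8 became -0.23 for enrichment, -0.20 for the pull-down ratio, 0.12 for the miR-491-5p beads and 0.12 for the control beads. The share of higher genes among all calls went from 45.6% to 66.6% for enrichment, from 44.0% to 66.5% in the pull-downs, from 51.8% to 90.8% and from 46.2% to 62.6% on the miR-491-5p beads and the control beads, and from 50.0% to 81.5% in the edgeR test (69.1% with DESeq2, and 67.9% with TMM over the kept genes, an alternative added after the data were seen). Without the count minimum, 2577 genes passed 2-fold in enrichment (1238 with it), 2374 in the pull-down ratio (718), 955 in the input ratio (157), 3647 and 4702 on the miR-491-5p beads and the control beads (1304 and 2358), and 2039 were called by edgeR (1246). With a minimum of 200, 53 passed in the input ratio and 818 on the miR-491-5p beads. Taking the inputs as equal, an alternative added after the data were seen, makes the enrichment the pull-down ratio, with the same 718 genes. In another added after the data were seen, the median of the 8 on the control beads was -0.10. It used the miR-491-5p input in place of the control input. TMM and a pseudocount of 5 changed no count of the 8 genes, nor did either count minimum. Without the block, edgeR called 999 genes and again 0 of the 8. With 1 transfection left out, values of the 8 ranged from -0.74 to 0.86, with no test.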
